A study of Mus musculus with 6 samples.

Results

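The transcripts described here are the nuclear-encoded subunits of the last pair of machines of oxidative phosphorylation: cytochrome c oxidase (complex IV) and ATP synthase (complex V), with the ATP synthase inhibitor Atpif1. They were taken by gene symbol from the deposited read count table, which held all 31 of them among 23951 genes, 15 for complex IV and 16 for complex V, and all 31 passed the filter on low counts. The cells were fetal liver haematopoietic stem cells (HSCs) of C57BL/6 mice, in 3 libraries of wild type cells (WT) and 3 libraries of cells with a knockout of Uqcrfs1 (KO). Uqcrfs1 encodes RISP, the Rieske iron-sulfur protein of complex III, the enzyme just upstream of cytochrome c. The labels name no treatment, and the sources used here do not state the embryonic age, the allele or a Cre driver. Whether libraries came from separate embryos is not stated either, and the p-values then reflect nothing beyond variation among the 6 libraries, which may be technical.

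Complex IV takes electrons from cytochrome c, reduces oxygen to water and pumps protons. Complex V lets protons flow back through a rotating ring of c subunits, and this turns a shaft inside the catalytic head that makes ATP. The catalytic core of complex IV and a few membrane subunits of complex V come from mitochondrial DNA, while the nuclear subunits described here surround that core or build the head, stalk and ring. Several have paralogues that are used in particular tissues or at low oxygen. Fetal liver HSCs divide actively, and blood stem cells are usually described as relying little on respiration.

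Total counts per library ran from 10191354 to 14590844, and the members held 0.516% to 0.622% of them. For Uqcrfs1 the WT libraries held 771, 1320 and 791 counts and the KO libraries 60, 51 and 39, so every library matched its label. Of 13 HSC marker genes, all 13 were detected in each library, and 5 were called lower in KO, against 4.99% of all genes tested. The summed level of marker lists of other cells lay lower in every KO library than in any WT library: it was 496 to 870 CPM (counts scaled to a common library size with TMM, the trimmed mean of M values) in WT and 184 to 242 CPM in KO for 10 erythroid genes, and 200 to 1150 CPM against 91.3 to 158 CPM for 11 macrophage genes. For 7 endothelial genes the sums were 217 to 1020 against 145 to 194 CPM, for 9 hepatoblast genes 128 to 204 against 66.3 to 116 CPM, and for 7 megakaryocyte genes 216 to 235 against 122 to 154 CPM. The sum of the 13 HSC genes also lay lower without overlap, at 2780 to 3360 CPM in WT and 2400 to 2570 CPM in KO. Single HSC genes differed: Gata2 had 194, 199 and 201 CPM in WT and 221, 206 and 257 CPM in KO, while 5 of the 13 were called lower. The sizes of the differences were not compared between lists. The erythroid globin genes Hba-a1 and Hbb-b1 were at 0 in all 6 libraries. Of single genes, 4 erythroid, 1 macrophage, 1 endothelial, 2 hepatoblast and 3 megakaryocyte markers were called lower, and 1 megakaryocyte marker, Selp, higher. Over all genes tested, 4.99% were called lower and 6.41% higher. WT replicate 3 held the highest macrophage and endothelial sums. In bulk RNA, fewer cells of a type and less RNA per cell cannot be told apart, and the part of these cell types in the results below was not tested.

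Promoter sequence was matched for 27 of the 31 genes (RefSeq, GRCm38.p6, the 250 bases before each annotated gene start). Cox4i1, Cox4i2, Cox6c and Atp5a1 had none. For 19 of the 30 windows, the bases just after the window were found near the start of the GENCODE transcript used for length. Some windows, such as those of Atp5f1 and Atp5j2, lay wholly in annotated exons. The motif shares given below were not adjusted for this. The stretches below are shown because nuclear respiratory genes are known for sites of NRF1 and of ETS factors such as GABPA, and because Cox5a and Atp5j are the members that passed the test. Capitals mark the letters of a searched motif on either strand: GCGCA, any base and then GCGC for NRF1, CCGGAAG for ETS factors and AAGATGGC for YY1, which do not overlap one another in the stretches shown. Each runs 5′ to 3′ on the strand of its gene. Those of Atp5j (before 1 of its 2 annotated starts), Cox6b1 and Atp5k lie in exons that GENCODE annotates on either strand. The first is chr9:57521152-57521231 (plus strand), and the others, all minus strand, are chr16:84835046-84835075, chr16:84835020-84835049, chr5:115349050-115349129, chr7:30626125-30626154, chr11:115420016-115420095 and chr5:108434430-108434459.
Cox5a, no motif: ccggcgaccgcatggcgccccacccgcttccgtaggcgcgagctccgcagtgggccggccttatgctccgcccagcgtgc
Atp5j, YY1: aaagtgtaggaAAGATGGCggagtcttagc
Atp5j, ETS: tagctgagggacCCGGAAGcacttaccctc
Cox6a1, NRF1 at both places: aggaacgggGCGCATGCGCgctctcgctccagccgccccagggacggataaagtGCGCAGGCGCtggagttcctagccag
Cox6b1, ETS: ctcctctcgcagCTTCCGGccagtcggaat
Atp5h, NRF1: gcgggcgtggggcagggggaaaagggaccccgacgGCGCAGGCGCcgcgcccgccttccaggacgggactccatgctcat
Atp5k, NRF1: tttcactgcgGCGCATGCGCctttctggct

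The NRF1 letters were in the promoters of 6 of the 27 genes (22.2%), against 5.84% of 17492 protein-coding genes searched in the same way. By complex, they were in 5 of 15 for complex V and 1 of 12 for complex IV. The ETS letters were in 6 of 27 (22.2%, against 10.2%), and the YY1 letters in 1 of 27 (3.7%, against 1.77%), the Atp5j promoter. Cox5a held none of the 3 in its window, which says only that these letters are not there. The 6 genes with NRF1 letters, Cox6a1, Atp5c1, Atp5g2, Atp5h, Atp5k and Atpif1, had log2 fold changes from -0.56 to -0.07 in KO, and none passed the test.

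In KO, most of these transcripts were slightly lower than in WT, and few by enough to pass a test. Of the 31, 28 had a log2 fold change below 0 (90.3%), against 52% of the 12204 genes tested. Only Cox5a and Atp5j were lower at an adjusted p under 0.05 (edgeR, Benjamini-Hochberg over all genes tested), which is 6.45% of the members against 4.99% of all genes, a share near the background. None was higher, against 6.41% of all genes. In 11 of the 31 (35.5%) all 3 KO libraries lay below all 3 WT libraries, against 14.5% of all genes, and in none did all KO libraries lie above, against 15.7%. At an unadjusted edgeR p under 0.05, 15 of the 31 members were lower, against 1503 of all 12204 genes (12.3%). At the same level 1 of the 31 was higher, against 1552 of all genes (12.7%).

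The medians of both complexes lay close together. The median log2 fold change was -0.29 over the 15 members of complex IV, with a range from -0.71 to 1.24, and -0.26 over the 16 of complex V, with a range from -0.69 to 0.08. Over all genes tested it was -0.02. Set against the WT mean of each gene, the median complex IV member stood at -0.20, 0.04 and 0.14 (log2) in the WT libraries and at -0.33, -0.37 and -0.22 in the KO libraries, in replicate order. The groups did not overlap, but WT replicate 1 lay beside KO replicate 3. The median complex V member stood at -0.13, 0.01 and 0.10 in WT and at -0.09, -0.37 and -0.37 in KO. KO replicate 1 thus lay within the WT range for complex V.

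**Figure D1:**
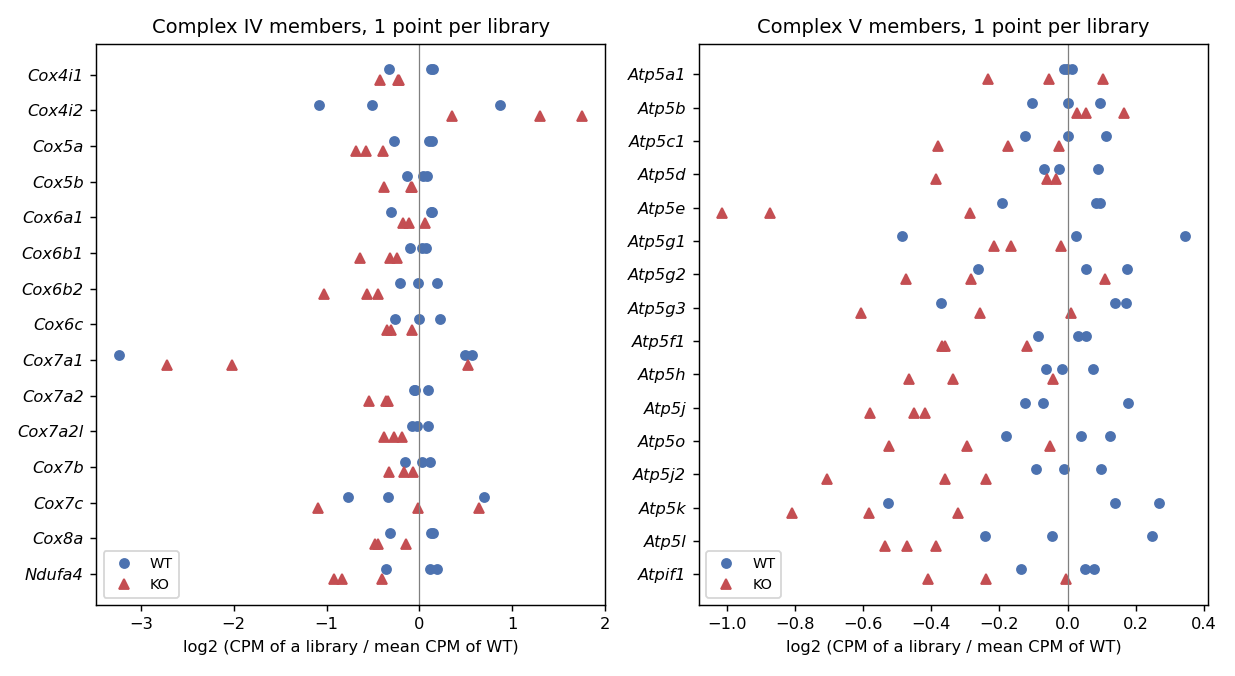
Level of each of the 31 genes in each library, as the log2 of its CPM over the mean CPM of WT (circles WT, triangles KO, 3 each; complex IV left, complex V right, with different x ranges). KO points lie mostly left of 0, with Cox4i2 to the right, and in 11 genes no KO point reaches the WT points.

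Transcript length moved with these changes. The members are short, with a median annotated length of 645 nt (371 to 2471 nt) against 2836 nt over all genes tested. Among the 961 other tested genes of up to 1000 nt, the median log2 fold change was -0.25, 69.5% were below 0, 8.74% were called lower, and in 23.8% all KO libraries lay below all WT libraries. The 25 members of up to 1000 nt had a median of -0.29, 92% were below 0, 8% were called lower, and in 36% all KO libraries lay below all WT libraries. None of the 25 was called higher, against 2.08% of the other short genes. In none did all KO libraries lie above all WT libraries, against 52 of the 961. The median and the share called lower of the short members were thus close to those of other short genes. Their shares below 0 and without overlap were larger. At an unadjusted edgeR p under 0.05, 13 of the 25 were lower, against 193 of the 961 other short genes. The 6 members above 1000 nt, Cox7a2l, Cox7b, Atp5a1, Atp5b, Atp5c1 and Atp5f1, had a median of -0.19, against 0 over all tested genes above that length. These 2 sets were not matched in length, with median lengths of 1385 and 3014 nt. In bins of all tested genes with median lengths of 1238 and 1479 nt, the median log2 fold change was -0.075 and -0.098.

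When the fit held offsets for length and GC content, the median member of complex IV stood at -0.20 and of complex V at -0.09. No member was called, against 1180 of the 12204 genes tested. Under that fit 26 of the 31 were still below 0, against 6290 of the 12204 and 562 of the 961 other short genes. The 6 members above 1000 nt stood at a median of -0.03, against -0.01 over all tested genes above that length. Across the 31 members, which share the same libraries and are not replicates, Spearman's correlation of log2 fold change with length was 0.48. It was 0.42 over the 15 of complex IV and 0.54 over the 16 of complex V.

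**Figure D2:**
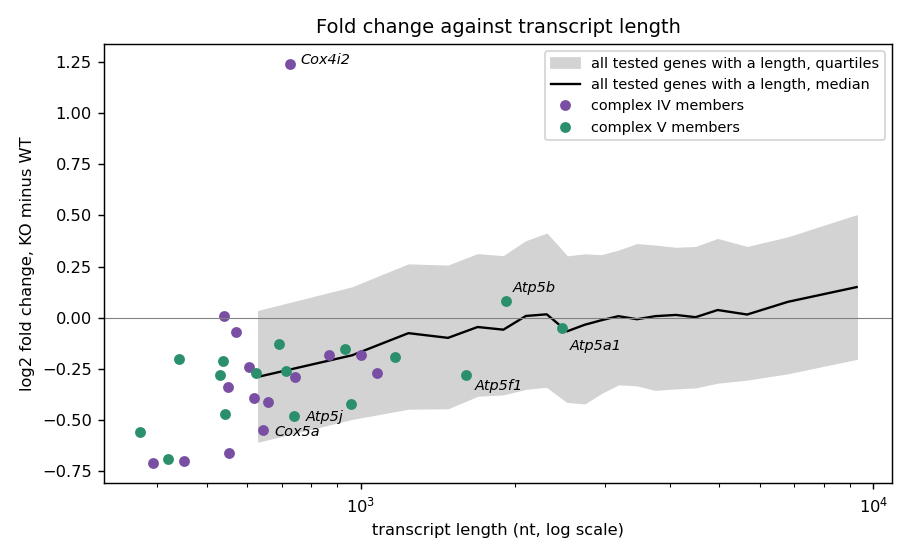
Log2 fold change (KO minus WT) against annotated transcript length in nt on a log scale, for members of complex IV and complex V (points) and for all tested genes with a length (line, median in 20 bins of equal size; band, quartiles). The shortest bin of all genes lies at a median of -0.288, among the short members, while Atp5a1 and Atp5b lie near 0.

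Cox5a was the complex IV subunit that passed the test. It encodes a matrix-side subunit that contacts Cox4. Its level was 84.9, 111 and 113 CPM in WT and 69.2, 78.5 and 64.0 CPM in KO, here and below in the order of replicates 1 to 3. All KO libraries were below all WT libraries. The level fell by 0.55 on the log2 scale (SE 0.17, edgeR adjusted p = 0.0358, 3 libraries per group). The call was lost with length and GC offsets (-0.32, adjusted p = 0.232), on log2(RPKM + 0.1) with limma (adjusted p = 0.0509), and when any library but WT replicate 1 was left out (adjusted p 0.0635 to 0.153).

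The other general subunits of complex IV did not pass in edgeR with all libraries. Cox4i1, the common form of the subunit with the regulatory nucleotide site, had 168, 233 and 229 CPM in WT and 181, 156 and 179 CPM in KO. WT replicate 1 lay among the KO values (log2 fold change -0.29, SE 0.13, edgeR adjusted p = 0.18), and without it the gene passed (-0.43, adjusted p = 0.0432). Cox7a2, the widely used form of subunit 7a, had 122, 111 and 110 CPM in WT and 78.7, 90.6 and 89.0 CPM in KO, with no overlap (-0.41, SE 0.15, edgeR adjusted p = 0.0729, and 0.0388 with DESeq2). Cox6b1, on the intermembrane side where oxidase monomers meet, had 110, 120 and 124 CPM in WT and 94.8, 75.5 and 100 CPM in KO, also with no overlap (-0.39, SE 0.15, edgeR adjusted p = 0.106).

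Ndufa4 was first assigned to complex I and is now counted as a complex IV subunit. It had 35.6, 52.1 and 49.7 CPM in WT and 34.6, 24.2 and 25.7 CPM in KO. The KO values lay below WT, with KO replicate 1 just under WT replicate 1. The log2 fold change was -0.70 (SE 0.24, edgeR adjusted p = 0.0633). The call turned on the method: the adjusted p was 0.0472 with DESeq2, 0.0495 with limma-voom, 0.0427 and 0.0483 in edgeR without WT replicate 1 or KO replicate 1, and 0.32 once offsets for length and GC were added, where the value was -0.40.

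The most abundant complex IV transcripts per length were Cox6c, Cox8a and Cox6a1, small membrane subunits. In RPKM (reads scaled by the authors for length and library size), Cox6c had 593, 732 and 825 in WT and 654, 550 and 594 in KO, Cox8a 525, 747 and 708 in WT and 481, 476 and 715 in KO, and Cox6a1 340, 478 and 462 in WT and 384, 383 and 517 in KO. The groups overlapped for all 3, and the order among them is within the spread between libraries for Cox6c and Cox8a. In CPM, their log2 fold changes were -0.24, -0.34 and -0.07 (edgeR adjusted p = 0.283, 0.106 and 0.811), and Cox8a passed without WT replicate 1 (-0.48, adjusted p = 0.028). Cox5b and Cox7b, subunits of the matrix side and the membrane, both had a log2 fold change of -0.18 and overlapping groups.

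Cox7c stood apart from the other general subunits by its low count. The WT counts were 39, 31 and 104 and the KO counts 32, 116 and 62, where Cox7b had 1449 to 2258. Per length it had 11.0 to 30.6 RPKM in WT. The groups overlapped widely (log2 fold change 0.01, SE 0.72). In the GENCODE transcripts (GRCm38), 1 pseudogene matched the Cox7c transcript at 95% identity or more over at least 50% of its length. Atp5l had 8 such pseudogenes and 1 gene of another kind, Atp5h 3, Atp5g2 2, and Atp5g1 and Atp5k 1 each. Atp5o matched 1 gene of another kind, Donson, which overlaps it on the same strand. The sources used here do not state how reads with several matches or in overlapping genes were counted, so the levels of these 7 genes are uncertain.

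**Figure D3:**
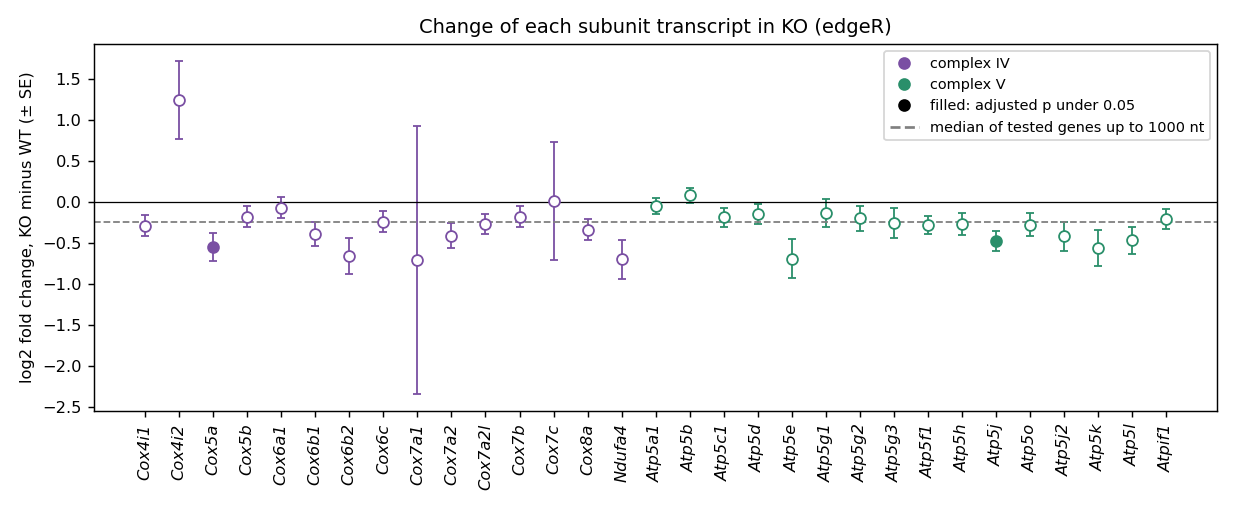
Log2 fold change of each member in KO against WT with its SE (edgeR, 3 libraries per group), complex IV then complex V, with filled symbols for an adjusted p under 0.05. Only Cox5a and Atp5j are filled, and the dashed line is the median of all tested genes of up to 1000 nt, -0.25.

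The largest positive value was that of Cox4i2, the paralogue of Cox4i1 known from lung and from cells at low oxygen. The WT counts were 44, 183 and 85 and the KO counts 318, 178 and 398, or 4.41, 17.0 and 6.55 CPM and 22.9, 11.9 and 31.4 CPM. KO replicate 2 lay below WT replicate 2, so the groups overlapped. The log2 fold change was 1.24 (SE 0.48, edgeR adjusted p = 0.108). The gene passed without WT replicate 2 (log2 fold change 2, adjusted p = 0.00929) and with no filter on low counts (adjusted p = 0.0179).

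The ratio of Cox4i2 to Cox4i1 was higher in each KO library than in any WT library. The log2 ratio of their counts was -5.24, -3.77 and -5.12 in WT and -2.98, -3.71 and -2.51 in KO. WT replicate 2 and KO replicate 2 lay close together. The difference was 1.64 (SE 0.59, exact two-sided permutation p = 0.1, which no comparison of 3 with 3 can go below, and 0.3 adjusted over 9 ratios). Cox4i2 stayed the minor form in every library, at 5.40 to 21.4 RPKM in WT and 15.1 to 40.1 RPKM in KO, where Cox4i1 had 219 to 323 RPKM.

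Cox6b2, known as the testis form of subunit 6b, was present in these cells at 50.5, 58.3 and 44.2 CPM in WT and 25, 34.4 and 37.5 CPM in KO. All KO values lay below WT (log2 fold change -0.66, SE 0.22, edgeR adjusted p = 0.0616), and the gene passed with DESeq2 (adjusted p = 0.0443). Per length it had 124 to 163 RPKM in WT, where Cox6b1 had 331 to 382. The log2 ratio of Cox6b2 to Cox6b1 counts overlapped between the groups, with a difference of -0.27 (SE 0.27, exact permutation p = 0.4, two-sided) that ran from -0.45 to -0.06 with 1 library left out.

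Cox7a1, the heart and skeletal muscle form of subunit 7a, was close to absent, with WT counts of 13, 1 and 16 and KO counts of 3, 2 and 16. Its log2 fold change of -0.71 has an SE of 1.63. Cox7a2l, also called SCAF1, resembles subunit 7a and is described as a factor that joins complex III to complex IV in respiratory supercomplexes, a role not tested here. It had 179, 165 and 159 CPM in WT and 147, 129 and 139 CPM in KO, with no overlap (log2 fold change -0.27, SE 0.12, edgeR adjusted p = 0.173). Its ratio to Cox7a2 overlapped between the groups, with a log2 difference of 0.14 (SE 0.12, exact permutation p = 0.4, two-sided).

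**Figure D4:**
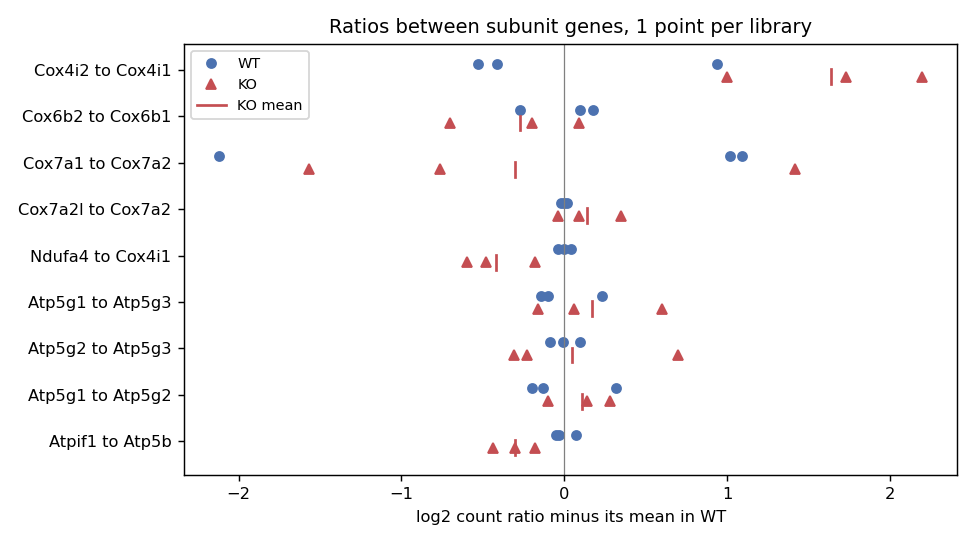
Log2 count ratio between the genes of 9 pairs in each library, less its mean in WT (circles WT, triangles KO, 3 each, short bars the KO mean). Cox4i2 to Cox4i1 lies higher in KO, Ndufa4 to Cox4i1 and Atpif1 to Atp5b lie lower, with no overlap in these 3 pairs, and the other 6 overlap.

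In the catalytic head of ATP synthase, the large alpha and beta subunits had values near 0. Atp5b, the beta subunit that carries the catalytic sites, had 887, 956 and 1020 CPM in WT and 1070, 990 and 972 CPM in KO (log2 fold change 0.08, SE 0.09, edgeR adjusted p = 0.638). Atp5a1, the alpha subunit, had 907, 897 and 892 CPM in WT and 965, 866 and 764 CPM in KO (-0.05, SE 0.10, edgeR adjusted p = 0.789). The groups overlapped for both. They also overlapped for the shaft genes Atp5c1, the gamma subunit (-0.19), and Atp5d, the delta subunit (-0.15).

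Atp5e, the epsilon subunit and the smallest protein of the shaft, had a lower value than these, a difference that was not tested. It had 39.9, 48.3 and 48.7 CPM in WT and 37.4, 24.9 and 22.6 CPM in KO. All KO values lay below WT, KO replicate 1 only narrowly. The log2 fold change was -0.69 (SE 0.24, edgeR adjusted p = 0.0703), with an adjusted p of 0.17 when length and GC offsets were used, of 0.046 in limma-voom and of 0.0292 without KO replicate 1. Its transcript of 421 nt is among the shortest of the members.

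The c ring is built from one mature peptide that Atp5g1, Atp5g2 and Atp5g3 all encode, behind different import sequences. Atp5g1 had 96.3, 137 and 171 CPM in WT and 120, 116 and 133 CPM in KO. Atp5g2 had 139, 188 and 173 CPM in WT and 137, 120 and 180 CPM in KO. Atp5g3 had 89.8, 131 and 128 CPM in WT and 117, 97.2 and 76.4 CPM in KO. The groups overlapped for all 3 genes, with log2 fold changes of -0.13, -0.20 and -0.26 and SEs of 0.17, 0.15 and 0.18.

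The mix of c subunit genes differed by less than its spread. Of their summed RPKM, Atp5g2 made up 46.7% ± 2.90 in WT and 47.1% ± 8.02 in KO, Atp5g3 28.3% ± 0.604 and 26.0% ± 7.16, and Atp5g1 25% ± 3.01 and 26.9% ± 1.21 (SD, n = 3 each). KO replicate 3 stood out with 56.3% Atp5g2 and 17.8% Atp5g3. The log2 count ratios differed by 0.17 (SE 0.25) for Atp5g1 to Atp5g3, 0.05 (SE 0.33) for Atp5g2 to Atp5g3 and 0.11 (SE 0.20) for Atp5g1 to Atp5g2, with exact permutation p of 0.7, 1 and 0.7 (two-sided). With 1 library left out they ran from -0.05 to 0.33, from -0.27 to 0.24 and from 0.01 to 0.27. Differences of the size of these SEs could not be detected here.

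The peripheral stalk holds the head still against the turning ring, and its 4 nuclear genes all lay below 0. Atp5j, coupling factor 6, was the complex V subunit that passed the test. It had 218, 226 and 269 CPM in WT and 174, 159 and 178 CPM in KO. All KO libraries lay below all WT libraries. The level fell by 0.48 on the log2 scale (SE 0.12, edgeR adjusted p = 0.0117). The call was lost with length and GC offsets (-0.31, adjusted p = 0.0966), on the deposited RPKM with limma (adjusted p = 0.081), and without WT replicate 3 or KO replicate 2 (adjusted p = 0.0633 and 0.0853).

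Atp5j overlaps Gabpa on the opposite strand (GENCODE, GRCm38), the gene of the ETS factor whose motif letters are in the Atp5j promoter stretch above. Without a stated strand setting, reads of the overlap cannot be told apart. Gabpa itself had 150, 121 and 135 CPM in WT and 109, 122 and 107 CPM in KO, with overlapping groups (log2 fold change -0.26, SE 0.14, edgeR adjusted p = 0.248).

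Of the other stalk genes, Atp5f1, subunit b, had 265, 244 and 269 CPM in WT and 239, 201 and 202 CPM in KO. All KO values lay below WT (log2 fold change -0.28, SE 0.11, edgeR adjusted p = 0.127). Atp5h, subunit d, and Atp5o, the oligomycin sensitivity protein, had -0.27 and -0.28 with overlapping groups. Atp5a1, Atp5d, Atp5f1, Atp5o, Cox4i1 and Cox6c also overlap a protein-coding gene on the opposite strand, and Atp5o and Cox4i1 others on their own strand, with the same limit.

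The membrane subunits e, f and g, which help the enzyme form rows of dimers, had the lowest median log2 fold change among the structural groups of complex V, -0.47. Atp5l, subunit g, had 81.9, 93.9 and 115 CPM in WT and 74.1, 66.9 and 69.9 CPM in KO, with no overlap (-0.47, SE 0.17, edgeR adjusted p = 0.0744). Atp5j2, subunit f, had 79.1, 69.3 and 73.4 CPM in WT and 62.6, 57.6 and 45.3 CPM in KO, with no overlap (-0.42, SE 0.18, edgeR adjusted p = 0.143). Atp5k, subunit e, had 46.6, 81.0 and 74.0 CPM in WT and 53.8, 44.9 and 38.4 CPM in KO, where WT replicate 1 lay among the KO values (-0.56, SE 0.22, edgeR adjusted p = 0.103). Without WT replicate 1, Atp5k and Atp5l passed (adjusted p = 0.0271 and 0.0453). With length and GC offsets the 3 stood at -0.22, -0.26 and -0.37, and none passed.

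Atpif1 encodes the inhibitor that stops ATP synthase from running backwards and splitting ATP. It had 232, 269 and 264 CPM in WT and 254, 216 and 192 CPM in KO, with overlapping groups (log2 fold change -0.21, SE 0.12, edgeR adjusted p = 0.305). Against Atp5b within each library, its log2 count ratio was -1.93, -1.83 and -1.95 in WT and -2.08, -2.20 and -2.34 in KO. All KO ratios lay below all WT ratios, with a difference of -0.30 (SE 0.09, exact permutation p = 0.1, two-sided, and 0.3 adjusted over 9 ratios). Ndufa4 to Cox4i1 gave the same p, with ratios of -2.24, -2.16 and -2.20 in WT and -2.38, -2.68 and -2.80 in KO and a difference of -0.42 (SE 0.12). Atpif1 (539 nt) and Ndufa4 (452 nt) are shorter than Atp5b (1916 nt) and Cox4i1 (745 nt), and the part of length in these ratios was not tested.

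Per length, the most abundant complex V transcripts in WT were Atp5k at 406, 715 and 645 RPKM, Atpif1 at 483, 545 and 530 RPKM and Atp5b at 460, 479 and 534 RPKM. In KO they stood at 482, 398 and 351, at 511, 435 and 425, and at 534, 503 and 450 RPKM. The order of the 3 is within the spread between libraries, as is the place of Atp5h, the next, at 475, 459 and 515 RPKM in WT. The length that the counts and RPKM of Atp5k imply was 108 to 116 nt, against 371 nt in the annotation, so the place of this short transcript depends on the authors' length scaling. In KO replicate 3 the RPKM of Atp5d was 53.2, against 162 to 242 in the other 5 libraries, although its count of 2555 was within their range. Its implied length was 3990 nt there and 895 to 1010 nt elsewhere, so this RPKM value does not follow the count. On log2(RPKM + 1) the log2 fold change of Atp5d was -0.88 (limma adjusted p = 0.329), against -0.15 from counts. The same library gave Cox7b an implied length of 927 nt, against 546 to 628 nt elsewhere.

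Of the partners of both enzymes, 1 gene passed the test. Of 25 tested assembly factors of complex IV, none passed in either direction, against 4.99% of all genes lower and 6.41% higher, and the median log2 fold change was -0.18. All KO libraries lay above all WT libraries in 4 of the 25, Lrpprc, Cox11, Cox18 and Coa4 (15.7% of all genes), and below in 1, Cox16 (14.5% of all genes). Lrpprc, which stabilises the mitochondrial mRNAs of oxidase subunits, had 146, 141 and 147 CPM in WT and 181, 188 and 173 CPM in KO, with no overlap (0.32, SE 0.12, edgeR adjusted p = 0.0874). Cox16 had 40.4, 32.8 and 29.1 CPM in WT and 17.9, 23.4 and 16.5 CPM in KO, lower with no overlap (-0.82, SE 0.27, edgeR adjusted p = 0.0531). Among the copper and haem factors, the groups overlapped for Sco1, Sco2, Cox10, Cox15 and Cox17, while Cox11 had 6.72, 6.42 and 9.02 CPM in WT and 14.1, 10.8 and 11.5 CPM in KO, with no overlap (0.71, SE 0.44, edgeR adjusted p = 0.345).

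For complex V, 1 of 8 tested assembly factors and small subunits was lower and none higher, against 4.99% and 6.41% of all genes, with a median of -0.04. The lower gene was Usmg5, or DAPIT, a small membrane subunit of ATP synthase. It had 64.3, 75.7 and 87.7 CPM in WT and 53.6, 47.4 and 40.4 CPM in KO, with no overlap. It fell by 0.69 on the log2 scale (SE 0.19, edgeR adjusted p = 0.0202), and the call was lost with length and GC offsets (-0.37, adjusted p = 0.237) and when WT replicate 3, KO replicate 2 or 3 was left out (adjusted p = 0.0935, 0.0782 and 0.11). The assembly factors Atpaf1, Atpaf2 and Tmem70 had log2 fold changes of 0.09, 0.07 and -0.05.

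Of tissue isoforms outside the members, Cox7b2, Cox8b, Cox8c and the testis cytochrome c gene Cyct were listed at 0 counts in all 6 libraries. Cox6a2, the heart and muscle form of subunit 6a, had WT counts of 0, 12 and 0 and KO counts of 30, 26 and 95, with a log2 fold change of 3.33 that did not pass (SE 1.46, edgeR adjusted p = 0.154). Ndufa4l2, known as a low-oxygen paralogue of Ndufa4, had WT counts of 24, 21 and 0 and KO counts of 5, 0 and 0, too few to test. Cycs, the somatic cytochrome c that feeds complex IV, had a log2 fold change of -0.30 with overlapping groups (SE 0.16, edgeR adjusted p = 0.275).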

How the data were processed

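Total RNA sequencing of 6 libraries gave 1 table of read counts and 1 of RPKM, both with 23951 genes. The deposited counts are whole numbers with no normalization, and the RPKM values were scaled by the authors for length and library size. TopHat and Cufflinks with the mm9 build are named in the submitters' processing notes. The sources used here do not state versions, the counter, the annotation or the strand setting. Counts were tested with edgeR 4.0.16 in R 4.3.3 (TMM, filterByExpr, quasi-likelihood test with robust dispersions, only the group in the model), with Benjamini-Hochberg adjustment over 12204 genes and a threshold of 0.05. SE is the size of the log2 fold change over the root of its F statistic. Alternatives used limma 3.58.1 and DESeq2 1.42.0. Ratios used counts with 0.5 added and exact permutation over libraries. Lengths and GC content came from GENCODE M21 transcripts, found for 99.4% of tested genes, and entered as splines. The fit was tested on simulated data. Replicate pairs differed by a chi-square of 22.1 to 44.8 per degree of freedom, so each library counted once. Named genes were Uqcrfs1 and all 31 members, with values for members that passed, did not overlap, belonged to a ratio or were the 3 most abundant of a complex, and partners that passed. Cox16, Lrpprc, Cox6a2, Ndufa4l2, Gabpa and other partners given with values were chosen after these were seen. The members and lists were chosen with earlier results of these data known.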

Additional observations from a re-analysis of the deposited data

How the results depend on the processing

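The 2 lower members (6.45%, against 4.99% of all genes) became 5 with DESeq2 (16.7% against 7.07%). They were 4 with no filter (12.9% against 5.44%) and with limma-voom (12.9% against 4.9%), and 1 with limma on log2(RPKM + 1) (3.23% against 2.03%). The number was 0 on log2(RPKM + 0.1) (against 1.69% of all genes), with length and GC offsets (4.2%) and with the replicate block plus these offsets (4.41%). Leaving out 1 library gave 0 to 7 lower members. There were 0 without WT replicate 3 or KO replicate 2 (against 3.87% and 2.1% of all genes), and 7 without WT replicate 1 (22.6% against 3.03%). Leaving out 1 library gave 0 to 1 higher members, 1 without WT replicate 2 (against 717 of 12621 genes). No filter also gave 1 higher (against 937 of 15453 genes), and both times it was Cox4i2. The 1391 calls over all genes were 1788 with DESeq2, 1778 with no filter, 590 and 525 on the RPKM scales and 712 to 1263 with 1 library left out. The median of complex V was -0.09 with the offsets and -0.10 with the block added, and -0.38 to -0.19 with 1 library left out. That of complex IV was -0.35 to -0.25 with 1 library left out. Among the ratios, leaving out 1 library gave 1.36 to 2.11 for Cox4i2 to Cox4i1, -0.54 to -0.33 for Ndufa4 to Cox4i1, -0.36 to -0.23 for Atpif1 to Atp5b, 0.03 to 0.22 for Cox7a2l to Cox7a2 and -1.36 to 0.33 for Cox7a1 to Cox7a2.

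The sign turned for members near 0: with the offsets, and with the block added, Cox5b (0.02 and 0.01) and Cox7b (0.08 and 0.09), on both RPKM scales Cox6a1 (0.01) and Atp5g1 (0.02), and for Cox7c with upper quartile scaling (-0.01), limma-voom (-0.07), RPKM (0 and -0.01) and the replicate block (-0.04). With 1 library left out, values ran from -0.20 to 0 for Cox6a1, -0.46 to 0.55 for Cox7c, -0.14 to 0.03 for Atp5a1 and -0.32 to 0.08 for Atp5g1. The replicate block alone left the 2 lower members and no other called (6.45% lower, against 4.74% of all genes). Libraries of the same number deviated together with correlations of 0.02, 0.01 and -0.01. No pairing by number was visible, but 3 libraries per group cannot exclude it. The causes were not tested. Counts were lowest for Cox7a1 (1 to 16 per library) and Cox7c (31 to 116), with SEs of 1.63 and 0.72.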
